A study of Mus musculus with 2 samples.

Results

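The regions described are 15827 open chromatin peaks of embryonic mouse kidney that lie far from any protein-coding gene and were called in both libraries of the study. They were chosen by position and by a peak call in both libraries. A member is an autosomal Enl-WT peak that overlaps an Enl-T1 peak by at least 1 bp, overlaps no protein-coding gene body, and has its midpoint more than 100 kb from every protein-coding transcription start site (TSS) of GENCODE M21 on mm10. The 15827 members are 9.92% of the 159560 Enl-WT peaks and 14.4% of the 109533 shared autosomal peaks. Each was paired with the Enl-T1 peaks that overlap it, 15378 of them 1 to 1. For 10534 the 2 intervals also covered at least 80% of each other, and these are called matched pairs.

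Chromatin accessibility was measured by single-nucleus ATAC-seq, in which a transposase cuts DNA where nucleosomes leave it exposed, in kidneys of E15.5 C57BL/6 embryos, with 1 library per group. Enl-WT embryos were Enl+/+ Wt1GFPCre/+, and Enl-T1 embryos were Enl flox-T1/+ Wt1GFPCre/+. ENL is a chromatin reader that binds acetylated histones through its YEATS domain, and T1 is a small in-frame insertion in that domain found in Wilms tumor, a kidney cancer of childhood. Both groups carry Cre in place of 1 Wt1 allele, so neither is wild type for Wt1, and Wt1 is expressed in nephron progenitors and in part of the stromal lineage but not in every kidney cell. How many embryos went into each library is not stated in the sources used here, and peak counts cannot show whether a nucleus carried the recombined allele. With 1 library per group, no difference between Enl-WT and Enl-T1 could be set against the spread between replicates, and the intervals below cover counting error only.

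Gene deserts are long stretches without coding genes, and many flank developmental regulators. Enhancers inside them, short regions bound by transcription factors, can act on a promoter far away through chromatin looping, and they are generally open in fewer cell types than promoters are. In the developing kidney, progenitors of the cap mesenchyme form the nephrons, the ureteric epithelium branches to form the collecting ducts, and the stroma lies around both.

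Below, a member is named by the 2 coding genes that border its desert, which says where it is and not which gene it acts on. The sequences printed here are 200-base windows inside members that recur below, from the RefSeq copy of the mm10 assembly, on the forward strand, with capitals marking the letters searched for. The first set comes from members with some of the highest ratios of Enl-T1 to Enl-WT counts, in the whole library or in nephron progenitor-like nuclei. Only members that hold the letters marked were picked for it. The capitals mark TTTATGG or TTTATTG, read on either strand and here called the posterior Hox letters after the factors known to prefer them. Of all members 40.03% hold them somewhere in the peak, against 30.3% of all shared peaks and 15.8% of shared promoter peaks. The windows show 1 of 2 matches in the Robo1-Robo2 member, 3 of 4 in the Kcnj2-Sox9 member, 2 of 3 in the Tbx15-Spag17 member and 2 of 3 in the Mb21d2-Hrasls member.
Robo1-Robo2 chr16:73439420-73439619: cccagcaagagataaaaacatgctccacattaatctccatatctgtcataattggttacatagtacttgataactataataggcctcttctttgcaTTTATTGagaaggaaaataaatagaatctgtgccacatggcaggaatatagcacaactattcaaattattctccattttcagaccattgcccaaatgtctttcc
Kcnj2-Sox9 chr11:112175028-112175227: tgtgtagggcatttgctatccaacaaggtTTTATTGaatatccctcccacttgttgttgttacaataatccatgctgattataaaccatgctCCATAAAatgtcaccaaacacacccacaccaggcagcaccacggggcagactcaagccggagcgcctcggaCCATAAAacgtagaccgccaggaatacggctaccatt
Tbx15-Spag17 chr3:99776975-99777174: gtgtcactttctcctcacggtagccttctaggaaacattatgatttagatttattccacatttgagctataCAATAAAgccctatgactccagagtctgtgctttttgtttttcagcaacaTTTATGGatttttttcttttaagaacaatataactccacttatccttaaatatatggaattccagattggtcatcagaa
Mb21d2-Hrasls chr16:29046732-29046931: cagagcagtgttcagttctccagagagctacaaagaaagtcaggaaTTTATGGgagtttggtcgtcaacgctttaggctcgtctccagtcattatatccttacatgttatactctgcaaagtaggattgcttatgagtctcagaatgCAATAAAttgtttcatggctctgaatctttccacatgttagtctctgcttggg

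The second set comes from members that lost counts in Enl-T1 nephron progenitor-like nuclei, again picked among those that hold its letters. Its capitals mark CAGCTG, an E-box that reads the same on both strands. Of all members 47.6% hold it, against 49.6% of all shared peaks. The windows show 2 of 4 matches in the Klf4-Actl7b member and 2 of 2 in the Fam92a-Triqk member.
Klf4-Actl7b chr4:55843802-55844001: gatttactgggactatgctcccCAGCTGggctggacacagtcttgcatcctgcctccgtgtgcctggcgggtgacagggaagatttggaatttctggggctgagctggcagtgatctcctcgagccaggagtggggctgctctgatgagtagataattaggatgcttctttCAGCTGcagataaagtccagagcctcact
Fam92a-Triqk chr4:12418169-12418368: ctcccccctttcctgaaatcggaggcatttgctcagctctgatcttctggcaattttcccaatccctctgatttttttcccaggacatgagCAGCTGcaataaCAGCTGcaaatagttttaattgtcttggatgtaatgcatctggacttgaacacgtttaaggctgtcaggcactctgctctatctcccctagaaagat

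The third set holds the members with the largest gain in Enl-T1 ureteric epithelium-like nuclei. Its capitals mark the AP-1 letters TGAGTCA or TGACTCA, which are reverse complements of each other and are held by 18.8% of members and 18.3% of all shared peaks. The windows show 1 of 2 matches in the Phkb-Abcc12 member, 1 of 1 in the Epha7-Map3k7 member and 2 of 2 in the Nucb2-Xylt1 member.
Phkb-Abcc12 chr8:86389944-86390143: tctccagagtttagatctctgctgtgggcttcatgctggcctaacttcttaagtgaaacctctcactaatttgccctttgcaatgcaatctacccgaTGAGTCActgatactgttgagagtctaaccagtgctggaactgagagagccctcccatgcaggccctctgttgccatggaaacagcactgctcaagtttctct
Epha7-Map3k7 chr4:31820049-31820248: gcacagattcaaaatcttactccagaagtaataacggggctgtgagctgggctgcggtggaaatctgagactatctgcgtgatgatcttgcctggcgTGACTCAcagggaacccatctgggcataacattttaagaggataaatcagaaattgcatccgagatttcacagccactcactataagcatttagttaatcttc
Nucb2-Xylt1 chr7:117090977-117091176: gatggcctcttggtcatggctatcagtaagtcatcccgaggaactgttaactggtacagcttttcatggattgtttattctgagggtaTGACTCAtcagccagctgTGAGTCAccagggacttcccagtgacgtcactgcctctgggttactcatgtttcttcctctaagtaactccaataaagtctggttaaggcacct

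The 2 libraries differed in depth and in makeup. Enl-WT kept 9472 nuclei with a median of 14789.5 counts and Enl-T1 12635 nuclei with a median of 8753 counts, and 169 barcodes occurred in both lists. Nuclei were clustered jointly on shared regions that are not members, and clusters were named from marker genes. There were 1557 Enl-WT and 4199 Enl-T1 nephron progenitor-like nuclei, 2817 and 4800 stroma-like, 885 and 1747 ureteric epithelium-like, and 699 and 511 endothelial-like ones. Early nephron epithelium-like nuclei numbered 1070 and 138, and those resembling distal tubule or loop of Henle (called distal below) 773 and 98. A further cluster of 654 Enl-WT and 8 Enl-T1 nuclei was left unnamed. In a finer clustering (resolution 2) a cluster of 646 and 6 nuclei with mostly the same leading genes was named proximal tubule. Values per whole library therefore also follow these shares, and a change of accessibility per nucleus and a change in the mix of nuclei cannot be told apart in them.

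Members were sparse along the genome and thinly counted. The deserts cover 777 Mb, 31.6% of the autosomes, and hold 20.4 members per Mb, against 55.6 shared peaks per Mb elsewhere. The median member lay 211 kb from the nearest coding TSS, 1753 lay beyond 500 kb and 269 beyond 1000 kb. Of the Enl-WT desert peaks 68.0% had an Enl-T1 partner, close to the 69.9% of intergenic peaks within 100 kb of a TSS and below the 88.9% of promoter peaks. The median member held 820 counts over both libraries, and the 5% and 95% points were 399 and 2523. Base composition set members apart from promoters, with a median GC content of 44.1% against 58.1%.

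Deserts were defined by coding genes and still hold other transcripts, since 2967 members (18.7%) overlap a gene of another type and 515 lie within 1 kb of the TSS of one. These include the most counted members. The 2 leading members, at chr17:39842852-39844942 and chr17:39847463-39848925, lie within 1 kb of the starts of Gm26917 and AY036118, at a repeat related to 45S ribosomal RNA. They held 125933 (Enl-WT) and 111294 (Enl-T1) counts, and 81770 and 57343. The next, chr13:107888901-107891428, is beside the start of Zswim6, which GENCODE M21 does not class as coding. It held 17136 and 12064 counts, a log2 ratio of Enl-T1 to Enl-WT of -0.27 after scaling to the counts in shared autosomal peaks. Of the 10 most counted members, 7 lie within 1 kb of a noncoding TSS, and their ratios ran from -0.33 to 0.09.

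**Figure D1:**
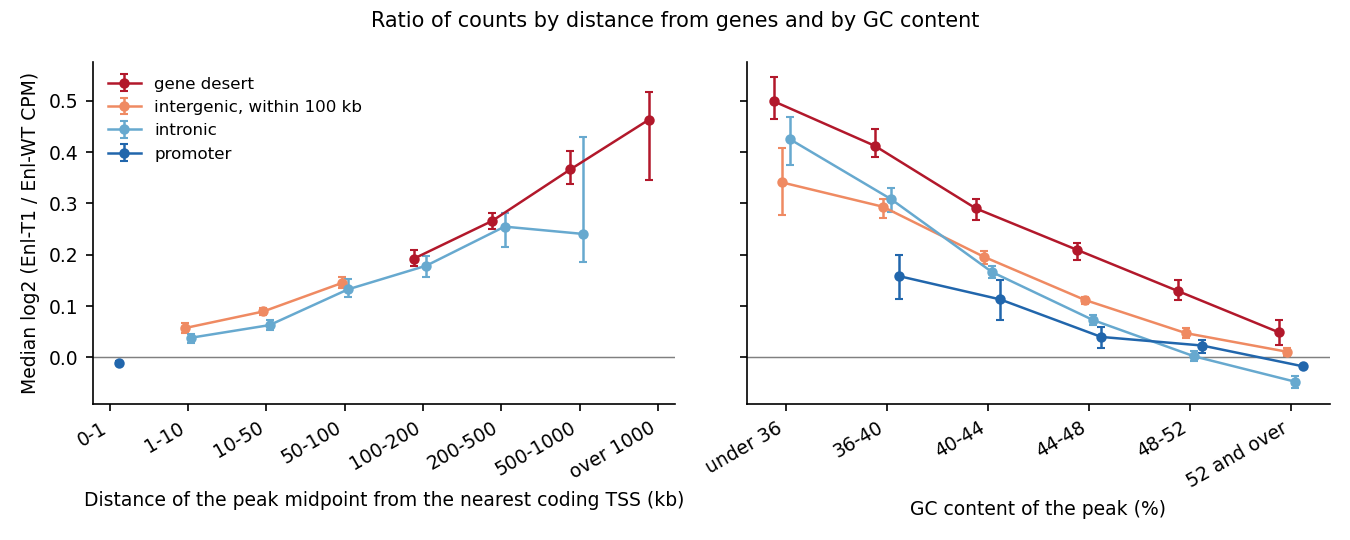
Median log2 ratio of Enl-T1 to Enl-WT counts (vertical axis, with 95% intervals) of matched pairs, by distance from the nearest coding TSS in kb (left) and by GC content in percent (right), for desert, near intergenic, intronic and promoter peaks. Desert medians run from 0.19 at 100 to 200 kb to 0.46 beyond 1000 kb, and from 0.50 below 36% GC to 0.05 at 52% GC or more.

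Members took a larger share of the Enl-T1 counts. Their share of the counts in shared peaks was 7.21% (Enl-WT) and 8.26% (Enl-T1), while promoter peaks held 47.3% and 45.6%. Of all autosomal counts, shared peaks as a whole took 88.8% and 94.9%, and members 6.40% and 7.84%. Per kb of peak they had 4.45 CPM (counts scaled to a common total in shared autosomal peaks) in the Enl-WT library against 5.63 CPM in the other, and all shared peaks had 8.88 and 9.88 CPM. Each library was divided by its own peak length, 16.2 Mb (Enl-WT) and 14.7 Mb (Enl-T1) for members. For all shared peaks these lengths were 112.6 and 101.2 Mb. Since their CPM has the same total in both libraries, their values per kb differ by peak length alone. Over the 15820 members with at least 200 counts the median log2 ratio was 0.21 (95% interval 0.21 to 0.22), against 0.06 for intergenic peaks within 100 kb, 0.05 for intronic peaks and -0.03 for promoter peaks. Of these members 1109 (7.01%) were at least 2-fold higher in Enl-T1, where 3.03% of all 109494 shared peaks tested were. At least 2-fold lower were 120 (0.759%), where 0.921% of all were. Among matched pairs the median was 0.24, with 6.36% higher and 0.446% lower, against 0.06, 2.42% and 0.494% over all matched shared peaks. When the 9124 (Enl-WT) and 11055 (Enl-T1) nuclei of at least 5000 counts were thinned to 5000 and compared by the share of nuclei with a count, the median was 0.14. Counting each nucleus once per peak without thinning gave 0.18. To be compared, an Enl-WT peak had to be called again in Enl-T1, as 68.0% of desert and 88.9% of promoter peaks were. The part of that requirement in these ratios was not tested.

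The ratio increased with distance and decreased with GC content. Matched pairs 100 to 200 kb from a TSS had a median of 0.19 with 4.57% at least 2-fold higher, those at 200 to 500 kb 0.27 with 6.78%, those at 500 to 1000 kb 0.37 with 10.8%, and the 200 beyond 1000 kb 0.46 with 18.5%. GC content fell over the same bins, from a median of 45.4% in the nearest to 37.7% in the farthest. By GC alone, the median ran from 0.50 (0.46 to 0.55) below 36% to 0.05 (0.02 to 0.07) at 52% or more. Within 40 to 44% GC the desert median was 0.29, against 0.20 for near intergenic, 0.17 for intronic and 0.11 for promoter peaks. The part of GC content in the ratios beyond these bins was not tested. Members within 1 kb of a noncoding TSS had a median of 0.10, and those 50 kb or more from one 0.29. The 100 kb boundary did not mark a step, since the 1115 members just inside it, at 100 to 110 kb, had a median of 0.14 and the 1227 intergenic peaks just outside it, at 90 to 100 kb, 0.13.

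The 8 matched members with the highest ratios held 0.605 to 3.02 CPM in Enl-WT, and most of their Enl-T1 counts came from nephron progenitor-like nuclei. The highest lay between Robo1 and Robo2, genes of receptors for the guidance factor Slit, at chr16:73439184-73440219 and 433 kb from the Robo1 start. It held 287 counts (2.38 CPM) in the Enl-WT library and 1531 counts (15.0 CPM) in the Enl-T1 library, which is 2.65 on the log2 scale (2.40 to 2.92). Within nephron progenitor-like nuclei alone it went from 44 to 1310 counts, or 2.07 to 33.4 CPM, a ratio of 3.997 (3.40 to 4.70), and in stroma-like nuclei from 33 to 87 counts.

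The Khdrbs2-Prim2 member, chr1:33173354-33174297, went from 272 to 1418 counts (2.62) and was higher in both nephron progenitor-like nuclei (84 to 933 counts, 2.58) and stroma-like nuclei (122 to 390 counts, 1.61). The Kcnj2-Sox9 member printed above, chr11:112174971-112175877, went from 364 to 1769 counts (2.52), with a ratio of 3.63 in nephron progenitor-like nuclei and 0.88 in stroma-like nuclei. The Tbx15-Spag17 member, chr3:99776922-99777847, went from 162 to 739 counts (2.42), from 43 to 620 in nephron progenitor-like nuclei (2.95) and from 57 to 65 in stroma-like nuclei (0.12). The others were Dmrta2-Elavl4 (2.51), Impg1-Htr1b (2.43), Dmrt2-Smarca2 (2.40) and D3Ertd751e-Pcdh10 (2.37), the last lying 1255 kb from the nearest coding TSS. The posterior Hox letters occur in 5 of these 8 members, where 40.03% of all members hold them, so 8 members are too few to read as a difference.

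The 8 matched members with the lowest ratios fell into 2 kinds. In 5 of them most Enl-WT counts came from nuclei outside the nephron progenitor-like, stroma-like, ureteric epithelium-like and endothelial-like classes, and none of the ratios within these 4 classes reached -1. Nuclei outside these classes include the unnamed cluster of 654 Enl-WT and 8 Enl-T1 nuclei, whose counts are not given apart. The lowest of the 8, between Adamts5 and N6amt1 at chr16:86647036-86647880, went from 887 to 218 counts (-1.78), yet held 96 and 117 counts in ureteric epithelium-like nuclei, a ratio there of -0.03. In distal nuclei it went from 156 to 5 counts, at 14.8 and 5.84 CPM. The Prdm1-Prep member, chr10:44863863-44864822, went from 911 to 288 counts (-1.42) in the whole library and held 25.1 and 26.9 CPM in distal nuclei. The Adamts16-Irx1 member lies beside Irx1, which encodes a homeodomain factor of the nephron tubule. It went from 916 to 304 counts (-1.35), with 314 and 14 counts in distal nuclei. The Rxylt1-Avpr1a member went from 674 to 199 counts (-1.52), with 169 and 8 counts there. The Pmp22-Hs3st3b1 member went from 1333 to 464 counts (-1.28) and held 27.8 and 28.7 CPM in early nephron epithelium-like nuclei.

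The other 3 were at least 2-fold lower within nephron progenitor-like nuclei. The St3gal1-Zfat member, chr15:67303479-67304462, went from 1236 to 422 counts (-1.31), from 357 to 84 in nephron progenitor-like nuclei (-2.96) and from 573 to 277 in stroma-like nuclei (-1.11). The Srrm4-Suds3 member went from 931 to 318 counts (-1.31) and from 431 to 239 in nephron progenitor-like nuclei (-1.73). The Gnpda2-Gabrg1 member went from 401 to 130 counts (-1.38) and from 114 to 51 in the same nuclei (-2.04).

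Among peaks that passed a minimum count, members were most often high in 1 class, followed by intronic, near intergenic and promoter peaks. Preference for a class was taken as its CPM over the CPM of all other named nuclei of the same library, for members with at least 100 counts in the class, a minimum that favours preferring peaks in small classes. In Enl-WT it left 12.4% of members and 75.6% of promoter peaks for ureteric epithelium-like nuclei, and 7.39% against 64.6% for endothelial-like nuclei, so the shares below do not describe all members. In Enl-WT 17.5% of members reached 4-fold in nephron progenitor-like nuclei (6.10% of all shared peaks), 33.1% in stroma-like nuclei (13.6% of all), 38.7% in ureteric epithelium-like nuclei (13.9% of all) and 46.4% in endothelial-like nuclei (15.9% of all). In Enl-T1 the shares were 16.4% (7.33% of all), 26.3% (11.6% of all), 34.7% (16.3% of all) and 63.6% (14.7% of all), the last over only 313 members. Promoter peaks reached 4-fold in 0.593% to 2.51% of cases (Enl-WT) and in 0.924% to 3.59% (Enl-T1). In the same order of classes, intronic peaks did so in 8.16%, 16.1%, 23.1% and 33.2% (Enl-WT). Their Enl-T1 shares were 9.18%, 13.6%, 25.3% and 57.1%. Near intergenic peaks ran from 5.99% to 25.5% (Enl-WT) and from 6.54% to 39.9% (Enl-T1), so class preference was not particular to deserts.

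**Figure D2:**
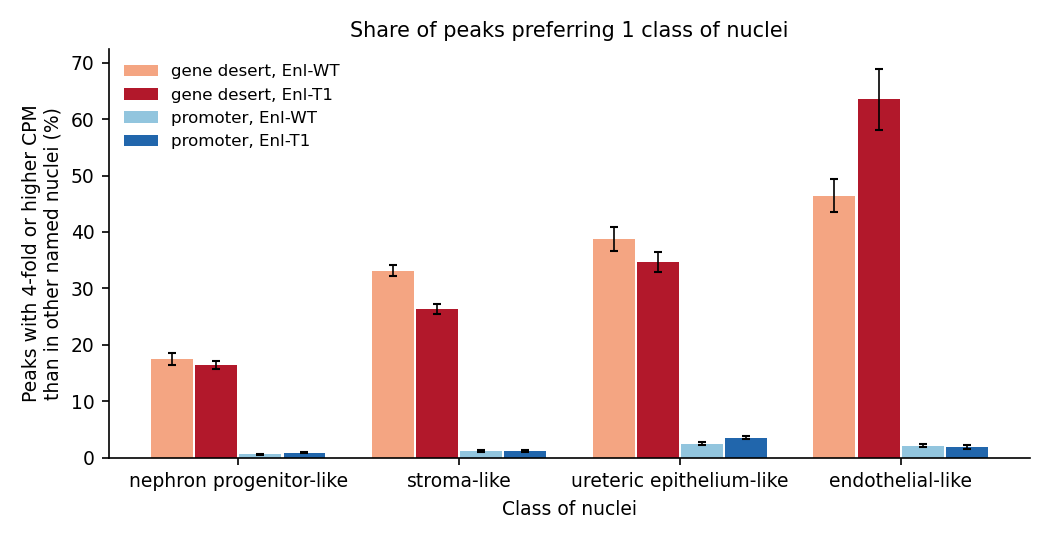
Percent of peaks (vertical axis, with 95% intervals) whose CPM in a class was at least 4-fold that of the other named nuclei, in each class and library, for desert and promoter peaks. Desert bars lie between 16.4% and 63.6%, and no promoter bar passes 3.59%.

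The members most particular to a class kept that preference in Enl-T1 to different degrees. The member between Slco6d1 and Cntnap5b, chr1:98835146-98836020, stood 64.0-fold higher in Enl-WT ureteric epithelium-like nuclei (19.5 against 0.300 CPM in other nuclei) and 25.2-fold higher in Enl-T1 (14.4 against 0.565 CPM). The Slco4c1-Slco6c1 member stood 58.2-fold and 36.1-fold higher in the same class. Of endothelial-like members, Cacng3-Rbbp6, chr7:122820922-122821771, stood 71.0-fold higher in Enl-WT (41.5 against 0.580 CPM) and 87.8-fold higher in Enl-T1.

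In stroma-like nuclei Cntn6-Cntn4, chr6:105400087-105401300, stood 38.6-fold and 10.5-fold higher, at 5.45 CPM (Enl-WT) and 5.30 CPM (Enl-T1), so that the class level was alike and the level in the other nuclei was not (0.135 and 0.499 CPM). The 3 leading members of nephron progenitor-like nuclei had the lowest folds of these classes. They were Arpp21-Pdcd6ip with 20.2-fold (Enl-WT) and 4.56-fold (Enl-T1), Tbx18-Nt5e with 18.8-fold and 3.01-fold, and Epm2a-Utrn with 17.0-fold and 7.55-fold. Their CPM in the class went from 12.1 to 4.49, from 16.4 to 3.06 and from 20.4 to 6.18. These members were picked for their Enl-WT values, so the lower Enl-T1 values are given as a description.

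Across all members, 608 reached 4-fold for nephron progenitor-like nuclei in both libraries, which is 66.7% of those in Enl-WT and 38.4% of those in Enl-T1. For stroma-like nuclei 2337 did so, 76.9% and 87.3% of the lists. For ureteric epithelium-like nuclei 664 did so, 87.6% and 68.2%. The members with enough counts in both libraries to appear in both lists numbered 5099, 8758 and 1855. For endothelial-like nuclei there were 311, fewer than the 543 members that reached 4-fold in Enl-WT, and 188 reached it in both. The same overlap was not computed over all shared peaks, so these shares do not set desert peaks apart from others.

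Among smaller classes, the Dchs2-Sfrp2 member, chr3:83583029-83584064, beside the gene of the Wnt antagonist Sfrp2, preferred early nephron epithelium-like nuclei 11.9-fold (Enl-WT) and 13.7-fold (Enl-T1). Thsd7a-Tmem106b, chr6:12892760-12893683, preferred podocyte-like nuclei 17.2-fold in Enl-WT, where it held 129 counts, and held 0 counts in the 7 such nuclei of Enl-T1.

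**Figure D3:**
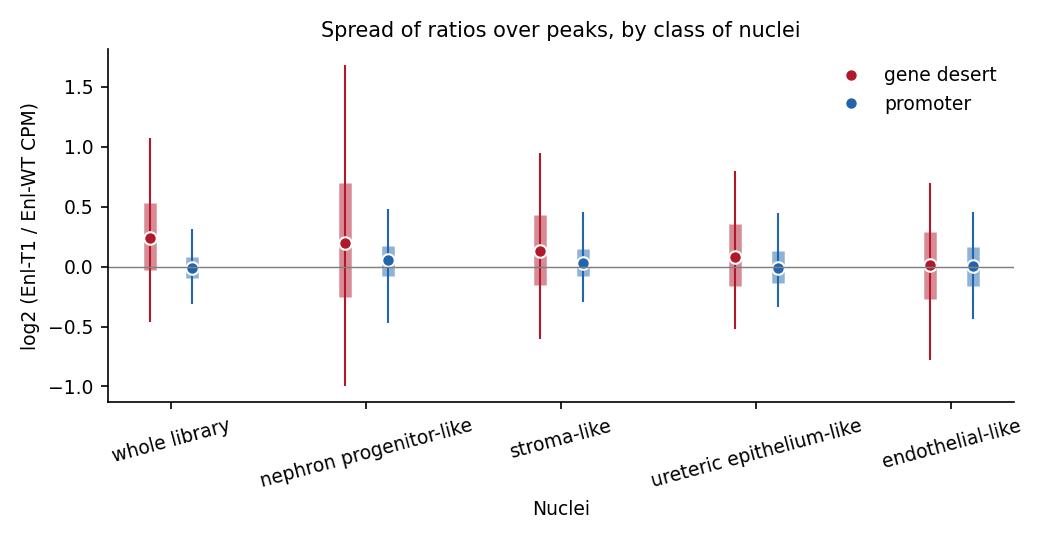
Distribution of the log2 ratio of Enl-T1 to Enl-WT CPM (vertical axis, with the median as a dot, 25% to 75% as a bar and 5% to 95% as a line) of matched desert and promoter peaks in the whole library and in 4 classes. Desert peaks spread most in nephron progenitor-like nuclei, from -0.99 to 1.68 at the line ends.

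Of the 4 classes compared, nephron progenitor-like nuclei had the largest shares of desert peaks past 2-fold in either direction. Of 11744 members with at least 100 counts there, 1819 (15.5%) were at least 2-fold higher in Enl-T1, against 6.87% of all shared peaks tested, and 658 (5.60%) at least 2-fold lower, against 4.92%. The median was 0.18 (0.16 to 0.19). In stroma-like nuclei 684 of 13379 (5.11%) were higher, against 2.84% of all, and 200 (1.49%) lower, against 1.12%, with a median of 0.10. In ureteric epithelium-like nuclei 153 of 5015 (3.05%) were higher, against 2.17% of all, and 31 (0.618%) lower, against 0.537%, with a median of 0.06. Near intergenic and intronic peaks had medians of 0.07 and 0.05 there, so that median was not particular to deserts. Their medians were 0.02 and -0.02 in nephron progenitor-like nuclei, and 0.05 and 0.05 in stroma-like nuclei. In endothelial-like nuclei 25 of 1804 (1.39%) were higher, against 1.01% of all, and 61 (3.38%) lower, against 1.61%, with a median of -0.02.

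The spread of matched promoter peaks was smaller, with 0.785% higher and 0.953% lower in nephron progenitor-like nuclei. Matched promoter peaks also held more counts, with a whole-library Enl-WT median of 2499 against 410 for matched members. The part of counting error in the wider spread of members was not tested. Over the 602 matched members counted in all 4 classes, the shares at least 2-fold higher were 4.15% (nephron progenitor-like), 0.831% (stroma-like), 0.997% (ureteric epithelium-like) and 1.33% (endothelial-like). The shares at least 2-fold lower were 1.99%, 0.332%, 0.166% and 1.66% in the same order. Shares under this filter were not computed over all shared peaks, so these do not set desert peaks apart from others.

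The nephron progenitor-like class was made of different clusters in the 2 libraries. One cluster held 5 Enl-WT and 4080 Enl-T1 nuclei, and the other 1552 and 119. Within the second cluster alone the member median was 0.03 (0.01 to 0.06), with 7.44% higher and 13.0% lower over 5482 members, and the promoter median was -0.02. The 119 nuclei give fewer counts and a wider spread. Of the 5 stroma-like clusters, 3 also came mostly from 1 library, with 4 and 1116, 150 and 1127, and 861 and 271 nuclei, and a ureteric epithelium-like cluster held 128 and 669. In the stroma-like cluster with 1192 and 1345 nuclei 1.93% of members were higher and 1.15% lower, and in the ureteric epithelium-like cluster with 757 and 1078 nuclei 2.03% and 0.776%. Within single clusters the shares over all shared peaks were not computed, so the shares of members there do not set desert peaks apart. The small class medians also turned with the settings. At a minimum of 400 counts the ureteric epithelium-like median was -0.05 over 666 members, and over matched pairs the endothelial-like median was 0.01.

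The largest gain in nephron progenitor-like nuclei was in the Mb21d2-Hrasls member, chr16:29046399-29047299, from 18 counts (0.847 CPM) to 619 counts (15.8 CPM), a ratio of 4.18 (3.28 to 5.36). In stroma-like nuclei it held 257 and 637 counts (1.24), so it was open there in Enl-WT already. The Triqk-Runx1t1 member, chr4:13154312-13155341, was of the same kind, with 10 and 317 counts in nephron progenitor-like nuclei (4.04) and 175 and 141 in stroma-like nuclei (-0.37). Losses after St3gal1-Zfat were largest in 2 members whose stroma-like counts did not fall likewise. The Klf4-Actl7b member, chr4:55843462-55844362, lies in the desert of Klf4, which encodes a zinc-finger factor of epithelia and stem cells. It went from 253 to 68 counts (-2.77) in nephron progenitor-like nuclei and from 319 to 459 (0.46) in stroma-like nuclei, which left its whole-library ratio at 0.08. The Fam92a-Triqk member, chr4:12417851-12418751, went from 216 to 59 counts (-2.75) and from 494 to 479 (-0.11).

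The highest stroma-like ratios were those of a second Kcnj2-Sox9 member, chr11:112225029-112225797, which went from 35 to 196 counts (2.40, 1.68 to 3.25), of Thap1-Zfp703, chr8:26718205-26719034, from 101 to 558 counts (2.40), and of Nectin3-Dppa4, chr16:46625447-46626533, from 64 to 336 counts (2.32). The Thap1-Zfp703 member held 23.2 and 31.7 CPM in nephron progenitor-like nuclei, above its 2.91 and 15.4 CPM in stroma-like nuclei. The lowest was Thumpd2-Slc8a1, chr17:81322660-81323803, near the gene of a sodium-calcium exchanger, from 387 to 108 counts (-1.90). Next were Tmem182-Pou3f3 from 151 to 52 counts (-1.59) and Cd83-Jarid2 from 257 to 94 counts (-1.51). Pou3f3 encodes a factor of the distal nephron and Jarid2 a partner of the Polycomb complex PRC2.

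Ureteric epithelium-like ratios were smaller. Phkb-Abcc12, chr8:86389408-86390532, went from 101 to 342 counts (1.44, 0.98 to 1.92) while it held 25.1 and 21.5 CPM in nephron progenitor-like nuclei. Epha7-Map3k7, chr4:31819464-31820377, in the desert beside the gene of the kinase TAK1, went from 51 to 164 counts (1.36). Nucb2-Xylt1, chr7:117090456-117091464, beside the gene of an enzyme that starts proteoglycan chains, went from 50 to 157 counts (1.32). The lowest were Adgra3-Ppargc1a, chr5:50904507-50905395, from 179 to 90 counts (-1.31), Smad3-Smad6, between genes of an effector and an inhibitor of TGF-beta family signalling, from 237 to 148 counts (-0.996), and Nlrp1b-Wscd1 from 252 to 165 counts (-0.93).

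Endothelial-like nuclei were few, and their extremes rest on low counts. The lowest were 4931429L15Rik-Gm4791, from 215 to 36 counts (-1.38), Msx2-Drd1, from 234 to 42 (-1.28), and Mex3b-Tmc3, from 197 to 36 (-1.26). The highest was another Thap1-Zfp703 member, chr8:26833054-26834099, from 133 to 122 counts (1.06).

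**Figure D4:**
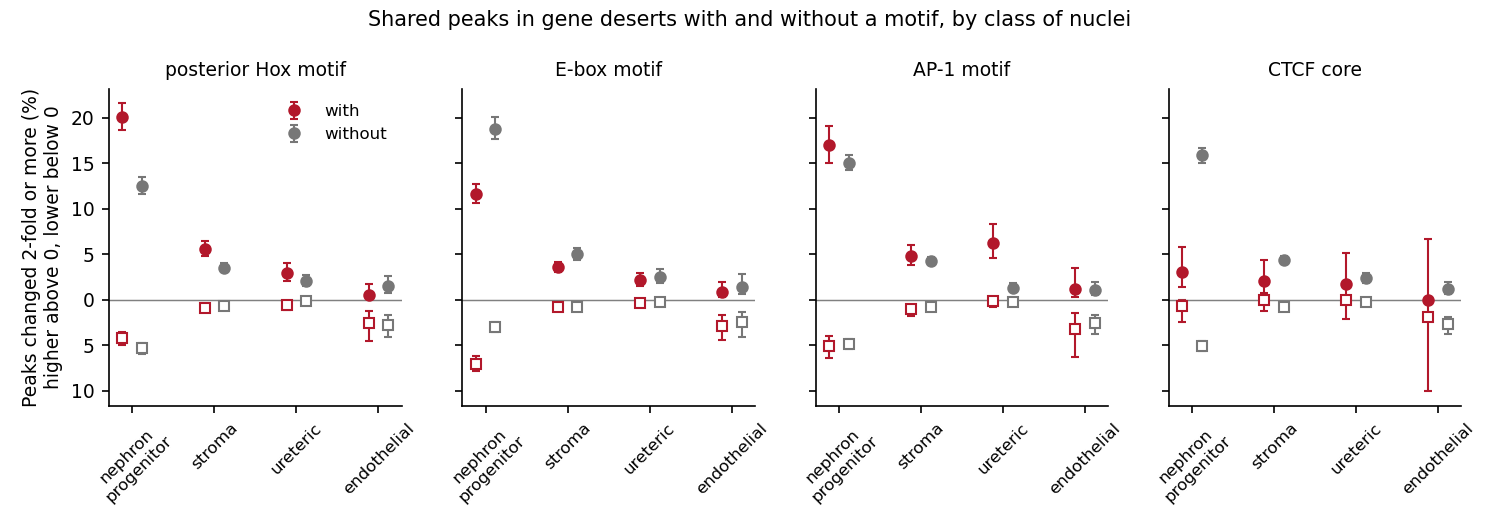
Percent of matched members at least 2-fold higher in Enl-T1 (filled circles, above 0) or at least 2-fold lower (open squares, below 0), with 95% intervals, in 4 classes, for members with and without each set of letters. In nephron progenitor-like nuclei the shares higher differ for the CTCF core and for the posterior Hox and E-box letters. In ureteric epithelium-like nuclei they differ for AP-1 letters, with 6.23% against 1.34% higher.

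Members that hold certain letters differed from those that lack them. A match is a description of the sequence and not a bound site. In nephron progenitor-like nuclei, 20.1% of 2947 matched members with the posterior Hox letters were at least 2-fold higher in Enl-T1, against 12.5% of 4871 without. The gap remained among members of 40 to 48% GC (19.5% against 13.9%) and widened when only the central 500 bp were searched (23.4% against 12.8%). In stroma-like nuclei the shares were 5.60% and 3.49%. Over all matched shared peaks they were 10.9% and 4.61% in nephron progenitor-like nuclei, so the gap was not particular to deserts.

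E-box letters went the other way. Of 3736 matched members with CAGCTG 11.6% were higher and 7.01% lower in nephron progenitor-like nuclei, against 18.8% and 2.99% of 4082 without. Over all matched shared peaks the shares were 4.92% and 5.96% with the letters, against 7.62% and 2.25% without, so this gap was not particular to deserts either. At 40 to 48% GC the shares were 12.9% and 6.96%, against 18.9% and 3.15%. The St3gal1-Zfat member, the lowest of that class, holds no CAGCTG.

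AP-1 letters went with gains in the ureteric epithelium. Of 706 matched members with them 6.23% were higher there, against 1.34% of 2684 without, and 7.87% against 1.61% at 40 to 48% GC. The same shares in nephron progenitor-like nuclei were 17.0% and 15.1%. Over all matched shared peaks in ureteric epithelium-like nuclei they were 3.48% and 1.03%.

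The core of the motif of CTCF, a factor that anchors chromatin loops, was held by 3.13% of members, less often than by all shared peaks (5.59%) or by near intergenic peaks (7.72%). Of the 291 matched members with it 3.09% were higher and 0.687% lower in nephron progenitor-like nuclei, against 15.9% and 5.08% of those without. Over all matched shared peaks they were 1.06% and 0.415%, against 6.65% and 4.28%. Letters of some factors central to nephron progenitors and tubules are given next. Among members these showed smaller gaps in nephron progenitor-like nuclei than the posterior Hox or E-box letters did. Letters of other such factors, HNF4 and WT1 among them, were also searched, and their ratios are not given here. The HNF1 letters GTTAAT, in 36.9% of members and 28.8% of all shared peaks, went with 18.8% higher against 13.6% without (9.85% against 5.10% over all matched shared peaks). The TCF/LEF letters CTTTGAT, in 19.9% and 15.5%, went with 18.5% against 14.7% (9.22% against 5.84% over all). The Six2 letters TCAGGTT, in 15.3% and 15.2%, went with 14.5% against 15.5% (5.86% against 6.39% over all), and the TEAD letters GGAATG, in 49.4% and 46.2%, with 15.8% against 15.0% (6.61% against 6.09% over all).

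The members fall into 1330 deserts, of which 254 with at least 20 members hold 8895 (56.2%). Of these 254, 234 had a median ratio above 0 and 20 below, and 21 were above 0.5. The fullest was the 3697 kb gap between Zeb2, the gene of a zinc-finger repressor of epithelial genes, and Acvr2a, with 91 members and a median of 0.33. Its members ran from -0.93 to 1.65, with 5 at least 2-fold higher and 0 lower. Over all members 7.01% were at least 2-fold higher and 0.759% lower, and over all shared peaks 3.03% and 0.921%. Mki67-Mgmt (0.30) and Zfp608-Gramd3 (0.16) followed with 80 members each, then Cd83-Jarid2 with 76 (0.09), Cdh11-Cdh5 with 72 (0.35), and Med13l-Tbx3 (0.39) and Tmpo-Nedd1 (0.24) with 69 each. The Fat4-Intu desert, beside the gene of a stromal atypical cadherin, had 68 members and a median of 0.57, with 17 at least 2-fold higher and 0 lower. Its most counted member, chr3:39343838-39344853, went from 69 to 722 counts (2.50) in nephron progenitor-like nuclei and from 711 to 709 (-0.07) in stroma-like nuclei.

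Among deserts with at least 20 members the highest medians were in Pik3c3-Rit2 (0.81, 26 members, all above 0) and Zfp507-Tshz3 (0.74, 43 members, 39 above 0). Tshz3 encodes a zinc-finger factor of ureter smooth muscle. The lowest were in Pmp22-Hs3st3b1 (-0.25, 30 members), Cd109-Col12a1 (-0.21, 20 members) and Gm11361-Sox4 (-0.18, 41 members). Over matched pairs alone these low medians were nearer 0 or above it, at -0.04 (23 pairs), 0.05 (11 pairs) and -0.08 (31 pairs). The matched medians of Pik3c3-Rit2 and Zfp507-Tshz3 were 0.97 (18 pairs) and 0.78 (28 pairs). Sox4 encodes an HMG-box factor of nephron progenitors, and 13 of the 41 members were above 0.

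A list of kidney regulators borders 110 deserts with at least 5 members. Members in deserts of that list, 2817 in all, had a whole-library median of 0.23, against 0.21 for the other 13003. In nephron progenitor-like nuclei the medians were 0.25 and 0.16, with 17.98% and 14.9% at least 2-fold higher. The medians were 0.12 and 0.10 in stroma-like nuclei, 0.05 and 0.06 in ureteric epithelium-like nuclei, and -0.08 and -0.01 in endothelial-like nuclei. Sall1-Tox3, beside the gene of a zinc-finger factor required for kidney formation, had 63 members with a median of 0.12 in the whole library, 0.40 in nephron progenitor-like nuclei and near 0 in stroma-like nuclei. Its most counted member, chr8:89283284-89284181, went from 521 to 1906 counts in nephron progenitor-like nuclei (0.99). Etaa1-Meis1, beside the gene of a homeodomain cofactor, had 41 members with medians of 0.48 in the whole library, 0.77 in nephron progenitor-like nuclei and 0.02 in stroma-like nuclei. Myc-Gsdmc had 63 members with medians of 0.04, 0.22 and -0.09.

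**Figure D5:**
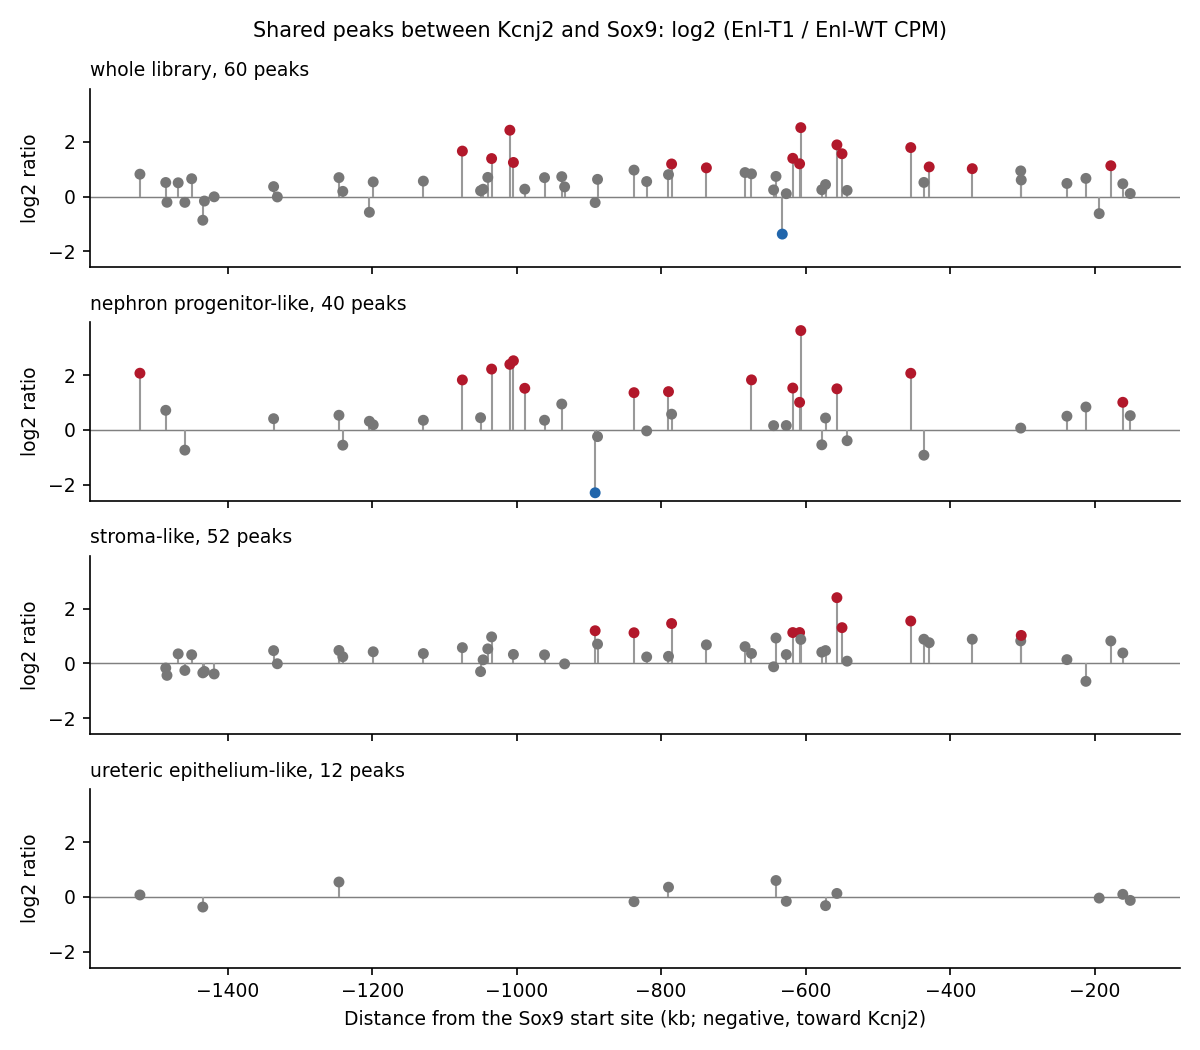
Log2 ratio of Enl-T1 to Enl-WT CPM (vertical axis) of Kcnj2-Sox9 desert members against distance from the Sox9 start in kb (horizontal axis, negative toward Kcnj2), in the whole library (60 members), nephron progenitor-like (40), stroma-like (52) and ureteric epithelium-like nuclei (12). Red points are at least 2-fold higher and blue at least 2-fold lower, and 15 red points stand in the whole library against 1 blue. Points include members that are not matched pairs, among them that blue one.

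The desert of 1705 kb between Kcnj2 and Sox9 held 60 members with a median of 0.58. Sox9 encodes an HMG-box factor active in the ureteric tip and the early nephron. Of the 60, 15 were at least 2-fold higher and 1 at least 2-fold lower. Over all members 7.01% were higher and 0.759% lower, and over all shared peaks 3.03% and 0.921%. In nephron progenitor-like nuclei 15 of 40 were higher and 1, not a matched pair, lower (median 0.53), in stroma-like nuclei 9 of 52 and 0 (0.42), and in ureteric epithelium-like nuclei 0 of 12 were higher (0.01). In the same order of classes, 15.5%, 5.11% and 3.05% of all members were higher, and 6.87%, 2.84% and 2.17% of all shared peaks. The members did not move as a block. The peak 607 kb from the Sox9 start, printed above and a matched pair, had a ratio of 2.52. One 632 kb away went from 212 to 69 counts (-1.37), but it is not a matched pair, so its 2 intervals differ. Among matched pairs, a member 1434 kb away went from 388 to 180 counts (-0.87). The 39 matched pairs of the desert had a median of 0.69. The most counted member, 543 kb away and also not a matched pair, held 1621 and 1603 counts (0.22). On the other side of the gene, the 39 members of Sox9-Slc39a11 had a median of 0.09 and a median in nephron progenitor-like nuclei of 0.07.

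Neighbouring members were alike over short distances. Across 494 pairs of matched members less than 2 kb apart, from 10012 with at least 400 counts, the correlation of their log2 ratios was 0.46. It was 0.29 at 2 to 5 kb, 0.22 at 5 to 20 kb, 0.14 at 20 to 100 kb and 0.06 beyond 500 kb. The GC content of the same pairs correlated at 0.56, 0.53, 0.47, 0.45 and 0.30, and all pairs share the 2 libraries.

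The 3 members farthest from a coding TSS all lie in the desert between Pcdh20 and Pcdh9, genes of protocadherins. The farthest, chr14:91243369-91244509, is 2642 kb from the Pcdh9 start and held 217 and 248 counts (0.43), mostly in stroma-like nuclei (159 and 186). Its neighbour at chr14:91288584-91289577 held 343 and 258 counts (-0.17) and was instead counted mainly in nephron progenitor-like nuclei (221 and 202, -1.01). The third, chr14:90831836-90833005, held 349 and 216 counts (-0.45), with 284 and 173 in stroma-like nuclei (-0.78). So 2 of these 3 remote regions had most of their counts in stroma-like nuclei and 1 in nephron progenitor-like nuclei.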

How the data were processed

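Per the submitters' processing notes, reads were aligned to mm10 and processed with Cell Ranger ATAC 2.1.0. The authors deposited, for each library, peaks called in that library alone and raw counts per peak and barcode, without normalization. In the deposited counts 80.1% (Enl-WT) and 81.2% (Enl-T1) of values equal 2, since both ends of a fragment are counted, so intervals were computed on counts divided by 2. Members and gene, marker and motif lists were chosen with earlier results of these data known. Barcodes of 2000 to 100000 counts were kept. Kept totals were 138015168 and 109444579 counts. Doublets were not removed, so a class may hold mixed barcodes.

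Counts were summed per peak over each library or class and scaled to a common total in shared autosomal peaks (CPM). Where 1 Enl-WT peak overlaps several Enl-T1 peaks their counts were added. Ratios are log2 of Enl-T1 over Enl-WT with 0.5 added to counts, for at least 200 counts over both libraries or 100 in a class. A promoter peak lies within 1 kb of a coding TSS. Intervals are 95%, exact binomial for shares (Clopper-Pearson) and for ratios of fragments, and binomial order statistics for medians. With 1 library per group no test between the groups exists and no p-value is given.

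Clusters came from latent semantic indexing (components 2 to 30), a shared graph of 15 neighbours and the Leiden algorithm at resolution 1, on regions that are not members. A class name needed a marker score of at least 0.4 with a lead of 0.1 and 3 raised markers. Markers of other classes could not outnumber its own among the top 10 genes, where a floor of 50 CPM was chosen after the clusters were seen. Unnamed nuclei (1136 and 881) entered whole-library values only.

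Named members were the 10 most counted, the 8 highest and 8 lowest matched pairs, the 3 highest and lowest matched pairs of 4 classes at 200 counts or more, the 3 with the highest class preference in Enl-WT, the most counted of the fullest and of the listed regulators' deserts, and the 3 farthest from a TSS. Deserts named for their medians, and the Sox9 desert members other than its named ones, were chosen after their values were seen. Alternatives covered scaling, pseudocount, filters, clustering, thinning and pairing. The scripts were tested on simulated data. Work was done in Python 3.11.15 with NumPy 2.4.6, SciPy 1.17.1, pandas 2.3.3, scikit-learn 1.9.0, igraph 0.11.9, leidenalg 0.10.2, and bedtools 2.31.1. Sex chromosomes were not used here.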

Additional observations from a re-analysis of the deposited data

Results flagged for a closer look

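Some desert peaks moved in opposite directions in 2 classes of nuclei, at least 2-fold higher in Enl-T1 in one and at least 2-fold lower in the other. Of 3149 matched members with enough counts in both nephron progenitor-like and stroma-like nuclei, 5 did so, and of 287 compared with endothelial-like nuclei, 1 did. No share over all shared peaks is given here, so these counts do not set desert peaks apart from others. With 1 library per group the difference between the classes was not tested for any of them.

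In 4 members the nephron progenitor-like value was higher and the stroma-like value lower. The Thumpd2-Slc8a1 member had log2 ratios of 1.3177 (49 to 227 counts) and -1.9002 (387 to 108 counts), so that its CPM was higher in stroma-like nuclei of Enl-WT and in nephron progenitor-like nuclei of Enl-T1. The Rragc-3100002H09Rik member, chr4:124349137-124349944, had 1.2716 (87 to 389 counts) and -1.4827 (180 to 67 counts). The Gja1-Hsf2 member, chr10:56892816-56893763, lies 514 kb from Gja1, the gene of the gap junction protein connexin 43, and had 1.0597 (41 to 159 counts) and -1.2389 (170 to 75 counts). A Phkb-Abcc12 member other than the one printed in the report, chr8:86301884-86303258, had 1.0772 (77 to 301 counts) and -1.0132 (547 to 283 counts), and its CPM ended nearly equal in both classes of Enl-T1, at 7.68 and 7.81.

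The Eipr1-Myt1l member at chr12:29348789-29349929 went the other way, with -1.9813 in nephron progenitor-like nuclei (219 to 102 counts) and 1.0072 in stroma-like nuclei (74 to 156 counts). The Mex3b-Tmc3 member, chr7:83482684-83483554, had 1.0553 in nephron progenitor-like nuclei (56 to 216 counts) and -1.2565 in endothelial-like nuclei (197 to 36 counts). Both nephron progenitor-like clusters and 3 of the 5 stroma-like clusters have nuclei mostly from 1 library, and the part of that in these values was not tested.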

How the results depend on the processing

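No paired analysis was possible because each group has 1 library. Of 92 recomputed values, 51 stayed within the counting interval of the reported value or, for shares past a fold and numbers of members, within 1.5 times of it, 37 moved further and 4 changed sign. The share of members at least 2-fold higher stayed between 5.53% and 9.14%, and class preferences over matched pairs stayed within 1.5 times of the reported shares. Depth limits the small classes, where few members reach 100 counts, and the causes of the shifts below were not tested.

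The whole-library median (0.214) was 0.175 when each nucleus counted once per peak, 0.243 over matched pairs, 0.259 beyond 200 kb, 0.311 when scaled to all autosomal counts, 0.268 when scaled to promoter counts, 0.176 by median of ratios (which shifts all shared peaks by 0.0388), 0.169 at 1000 counts or more and 0.136 after thinning, which also counts each nucleus once per peak and leaves out the 348 and 1580 shallower nuclei. The share at least 2-fold lower (0.759%) was 0.446% over matched pairs and 0.480% scaled to all autosomal counts. The share of counts in members (6.40% in Enl-WT, 7.84% in Enl-T1) was 6.56% and 7.97% when each nucleus counted once per peak, 4.31% and 5.42% over matched pairs, 3.03% and 3.88% beyond 200 kb, 6.26% and 7.70% without the 2 members beside 45S ribosomal RNA genes (added after the data were seen), and 7.83% in Enl-T1 for barcodes of at least 5000 counts. The number of members was 10534 for matched pairs, 8421 beyond 200 kb and 23870 beyond 50 kb.

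In nephron progenitor-like nuclei the median (0.18) was 0.159 with clustering on all shared regions, 0.154 by median of ratios, 0.200 over matched pairs and 0.0309 in the single cluster (added after the data were seen). In stroma-like nuclei (0.10) it was 0.125 scaled to promoters, 0.0613 by median of ratios, 0.129 over matched pairs, 0.0455 at 400 counts or more and 0.0732 in a single cluster. In ureteric epithelium-like nuclei (0.06) it was 0.120, 0.0358, 0.0791 and -0.0508 under the first 4 of these settings. In endothelial-like nuclei (-0.02) it was 0.0146, 0.00254, 0.0101 and -0.0599 under the same 4, and -0.107 both at resolution 2 and with clustering on all shared regions, each of which added a cluster of shallow nuclei to the class.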

Other observations

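Desert peaks that were called in only 1 library were left out of the comparisons above. Of 23281 Enl-WT desert peaks 7454 (32.0%) had no Enl-T1 partner, and of 19890 Enl-T1 desert peaks 3939 (19.8%) had no Enl-WT partner. They were less counted than the shared ones, with medians of 223 against 409 counts in Enl-WT and 251 against 395 in Enl-T1.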
